A study of Mus musculus with 6 samples.

Results

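Gene expression was compared between cells described as hair germ stem cells from Lef1 knockout mice and from mice with both Lef1 and Tcf7 knocked out. The question was what the added loss of Tcf7 changes. The comparison rests on 4 of the 6 libraries of the study, chosen by their titles: 2 from the double knockout (LEF1_TCF7dKO) and 2 from the conditional Lef1 knockout (LEF1cKO). The other 2 libraries, from wild type (WT), entered the fit for its estimate of spread and are given where a level needs a reference. All mice were 60 days old, carried Sox9-CreER and the R26-lox-stop-lox-YFP reporter, and were taken 3 days after depilation of back skin, which starts a new hair cycle. LEF1cKO mice were Lef1fl/fl and double knockout mice Lef1fl/fl;Tcf7-/-, while WT mice carried the driver and the reporter alone. Lef1 is therefore deleted only where Sox9-CreER acted, but Tcf7 is written as a null allele and so is not limited to those cells. The sort used YFP with 4 surface proteins (P-cadherin, Sca-1, CD34 and integrin b1); which side of each gate was kept is not stated in the labels. Of 46517 genes listed in each file, 19640 had enough counts to be tested.

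LEF1 and TCF7 are DNA-binding proteins that recruit beta-catenin to Wnt target genes and Groucho corepressors in its absence. TCF7L1 and TCF7L2 are the other members of the family, and TCF7L1 is best known as a repressor in resting bulge stem cells. The hair germ lies below the bulge and is the first part of the follicle to divide when a cycle starts, after which its progeny form the matrix that makes the hair shaft and inner root sheath.

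The site that all 4 proteins bind is most often written CTTTGAA or CTTTGAT. The RefSeq promoter sequences of GRCm38.p6, the same build as the files, were searched for both spellings on both strands, from 250 bases before to 50 after the gene start. A match stood in 6.23% of the 12253 tested genes with a promoter in that table, in 5.83% of 1526 genes that rose and in 6.47% of 2009 that fell. In all 27025 promoters of the table the share was 8.77%. A match is only a run of letters and not a bound site. The pair below, each 250 bases before the gene start and written 5′ to 3′ on the gene's strand with the match in capitals, shows that it stood before a gene of the hair germ list that fell and before an epidermal gene that rose. Edar, the ectodysplasin receptor that patterns the hair placode, is on the minus strand (chr10:58675697-58675946) with the match 233 bases before its start. Krtdap, a secreted protein of differentiating keratinocytes, is on the plus strand (chr7:30787655-30787904) with the match read from the other strand, 154 bases before its start.
Edar: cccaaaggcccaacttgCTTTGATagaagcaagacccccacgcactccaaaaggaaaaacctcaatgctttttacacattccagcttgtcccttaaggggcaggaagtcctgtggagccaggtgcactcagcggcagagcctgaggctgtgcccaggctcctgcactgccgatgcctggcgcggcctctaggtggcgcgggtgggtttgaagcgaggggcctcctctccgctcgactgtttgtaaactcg
Krtdap: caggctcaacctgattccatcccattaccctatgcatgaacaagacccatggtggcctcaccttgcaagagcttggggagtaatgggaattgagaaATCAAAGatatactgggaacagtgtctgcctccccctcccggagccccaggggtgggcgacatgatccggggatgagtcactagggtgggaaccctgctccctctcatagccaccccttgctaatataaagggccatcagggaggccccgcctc

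The libraries held 40480694 to 63220022 expected counts, and 14743 to 16032 genes reached 1 TPM (a transcript level scaled for length and library). The double knockout libraries were the shallowest, at 40480694 and 42987210. Nothing in the labels ties each library to an animal of its own, so p-values cover the spread among these samples alone. Within WT and within the double knockout that spread may be technical. The sex is labelled as mixed. In LEF1cKO replicate 1, Xist stood at 0.66 TPM and the Y-linked genes Uty and Kdm5d at 15.6 and 13.1, whereas Xist was at 309 to 380 TPM in the other 5. Sex therefore differs within LEF1cKO, so its 2 libraries came from different mice. There sex cannot be told apart from the replicate. LEF1cKO replicate 2 also lay closer to the double knockout (Pearson r of log2 CPM across genes 0.952 and 0.968) than replicate 1 did (0.929 and 0.946).

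Transcripts of the sort markers differed between the groups as well. Cdh3, which encodes P-cadherin and is high in hair germ, stood at 134 and 116 TPM in LEF1cKO and 65.9 and 85.9 TPM in the double knockout and fell (-0.79 ± 0.18, adjusted p = 0.0276, as a log2 fold change ± SE with the adjusted p of edgeR's quasi-likelihood test). Cd34, a bulge marker, stood at 11.3 and 17.8 TPM in LEF1cKO and 41.96 and 30.9 TPM in the double knockout and rose (1.24 ± 0.28, adjusted p = 0.0273). Ly6a, which encodes Sca-1 of the upper follicle and epidermis, stood at 21.8 and 45.9 TPM in LEF1cKO and 111 and 97.3 TPM in the double knockout and rose (1.58 ± 0.40, adjusted p = 0.0361). All 3 genes had separate groups, and the Cd34 and Ly6a levels in WT were 13.5 and 8.72 and 26.5 and 14.7 TPM. Itga6, an integrin of basal keratinocytes, rose (0.40 ± 0.10, adjusted p = 0.0369), Sox9, whose promoter drives the Cre, fell (-0.60 ± 0.16, adjusted p = 0.0447), and Itgb1, the integrin of the gate, stood at 167 and 157 TPM in LEF1cKO and 144 and 139 TPM in the double knockout (adjusted p = 0.137). In bulk RNA, fewer cells of a type and less RNA per cell cannot be told apart. The part of the cells' makeup in the results here and below was not tested. Summed markers of vessel cells and of fibroblasts, given below, were also higher in the double knockout. Their part in the Cd34 and Ly6a levels was not tested. The calls of Cdh3, Cd34, Ly6a, Itga6 and Sox9 were lost without LEF1cKO replicate 1, that of Sox9 without LEF1cKO replicate 2, those of Cd34, Ly6a and Itga6 without double knockout replicate 2, and those of Cdh3, Itga6 and Sox9 without either WT library.

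Between the knockouts, 4952 of 19640 genes passed an adjusted p of 0.05 (25.2%): 2192 rose (11.2%) and 2760 fell (14.1%). Among genes that passed, rises were larger and came from lower levels, with a median log2 fold change of 1.34 against -0.73 for falls. Small changes pass less easily at low counts, and the part of the threshold in that contrast was not tested. The median gene that rose went from 5.35 TPM in LEF1cKO to 13.5 in the double knockout, with 3.88 in WT. The median gene that fell went from 40.4 to 25.5 TPM, with 40.4 in WT. At least 2-fold, 1450 genes rose (7.38%) and 777 fell (3.96%). The knockout libraries were fully separate for 2184 genes that rose and 2751 that fell, and over all genes both double knockout libraries were above both LEF1cKO libraries in 35.0% and below them in 29.4%. Among 15317 protein-coding genes 4650 were called (30.4%), with 2064 rises (13.5%) and 2586 falls (16.9%). Before adjustment 8147 genes had a p under 0.05 (41.5%).

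How many genes passed depended on single libraries. Without double knockout replicate 1 only 1 gene passed, a rise, although 5884 genes then had an unadjusted p under 0.05. Every list count below is therefore 0 without that library, and the ranges given beside counts are those over fits that each left out 1 of the other 5. A percentage after such a range is the share of the list with all libraries, to be read against the 11.2% of all genes that rose or the 14.1% that fell. Without double knockout replicate 1 the shares were 0.0049% of 20389 genes up and 0.0% down. Without LEF1cKO replicate 1 the test called 723 rises (3.48%) and 929 falls (4.47%), and without replicate 2 of the same group 2689 (13.1%) and 3284 (16.0%). Without double knockout replicate 2 it called 1232 (5.96%) and 1652 (7.99%). The WT libraries matter through the estimate of spread: 1119 rises (5.44%) and 1082 falls (5.26%) passed without replicate 1, and 1066 (5.16%) and 1058 (5.13%) without replicate 2. The called genes that were tested kept their direction in every such fit (4945 without double knockout replicate 1, 4951 without replicate 2 and 4952 otherwise). That was nearly fixed beforehand, since 2184 of the rises and 2751 of the falls had separate knockout libraries. Leaving out 1 library can hardly reverse such a gene. Effect sizes changed unevenly without double knockout replicate 1. The median log2 fold change was then -1.22 for mitosis and kinetochore genes (-1.21 with all libraries) and 1.56 for suprabasal keratins and adhesion (1.68). For endothelial and mural markers it was 1.23 (2.47) and for muscle, fat and blood markers -0.63 (2.29). With all libraries the smallest adjusted p was 0.0107, so no gene passed at 0.01.

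**Figure D1:**
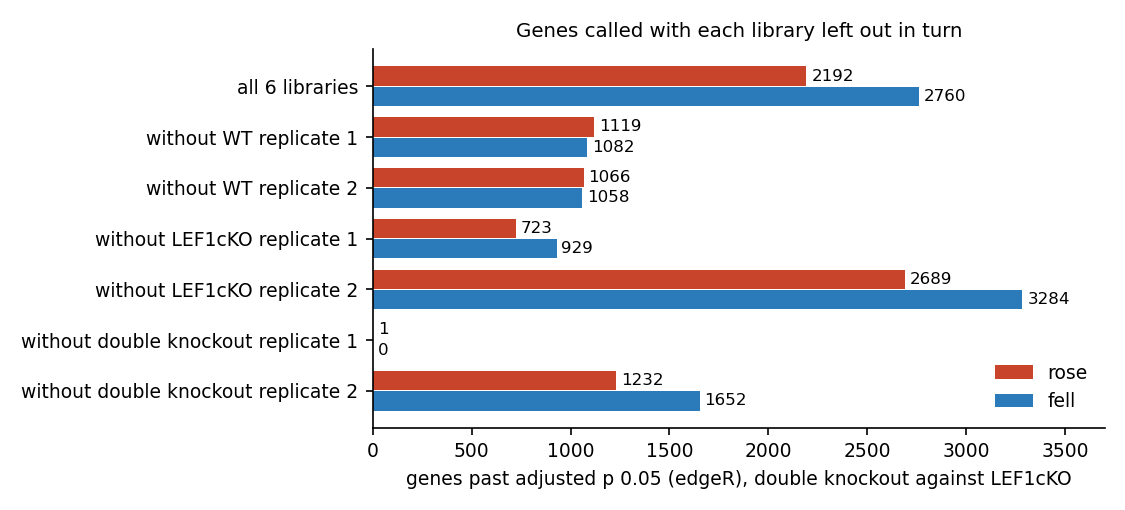
Number of genes past an adjusted p of 0.05 (x axis) that rose (red) or fell (blue) in the double knockout against LEF1cKO, with all 6 libraries and with each left out (y axis). The counts are 2192 and 2760 with all libraries and 1 and 0 without double knockout replicate 1.

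In the double knockout Tcf7, Tcf7l1 and Tcf7l2 fell, while Lef1 did not pass. Tcf7 (chr11:52252371-52283014, minus strand, GRCm38) stood at 29.3 and 27.8 TPM in LEF1cKO and 13.7 and 18 TPM in the double knockout, and at 26.9 and 36.01 TPM in WT. It fell (-1.12 ± 0.21, adjusted p = 0.018), in the direction that the labels give, but by less than the untargeted Tcf7l1, and transcript was still read in both Tcf7-/- libraries. The deposited values are per gene, so transcript outside the deleted part cannot be separated from the rest, and the level does not verify a null allele. Lef1 (chr3:131110471-131224356, plus strand), floxed in both groups, stood at 13.5 and 8.37 TPM in LEF1cKO and 9.22 and 9.42 TPM in the double knockout, against 21.4 and 20.4 in WT. Its transcript was thus still read in every knockout library, and the level does not verify deletion in all the cells taken. The LEF1cKO libraries bracketed those of the double knockout, and the gene did not pass (-0.36 ± 0.25, adjusted p = 0.325). That depended on LEF1cKO: without its replicate 2 Lef1 was called as a fall (-0.71, adjusted p = 0.0118), and without replicate 1 its log2 fold change was 0.09. The call of Tcf7 was lost without LEF1cKO replicate 1.

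Tcf7l1 (chr6:72626378-72789254, minus strand) stood at 34.4 and 28.2 TPM in LEF1cKO and 11.1 and 11.6 TPM in the double knockout, with 32.2 and 33.7 TPM in WT. It fell by more than any other member (-1.63 ± 0.17, adjusted p = 0.0107). Tcf7l2 (chr19:55741820-55933654, plus strand) stood at 28.7 and 25.9 TPM in LEF1cKO and 15.8 and 15.5 TPM in the double knockout and fell too (-0.86 ± 0.11, adjusted p = 0.0113), against 23.9 and 24.2 TPM in WT. The calls of Tcf7l1 and Tcf7l2 held without any 1 of the 5 libraries other than double knockout replicate 1. No family promoter held the CTTTGAA or CTTTGAT spelling in the window searched.

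**Figure D2:**
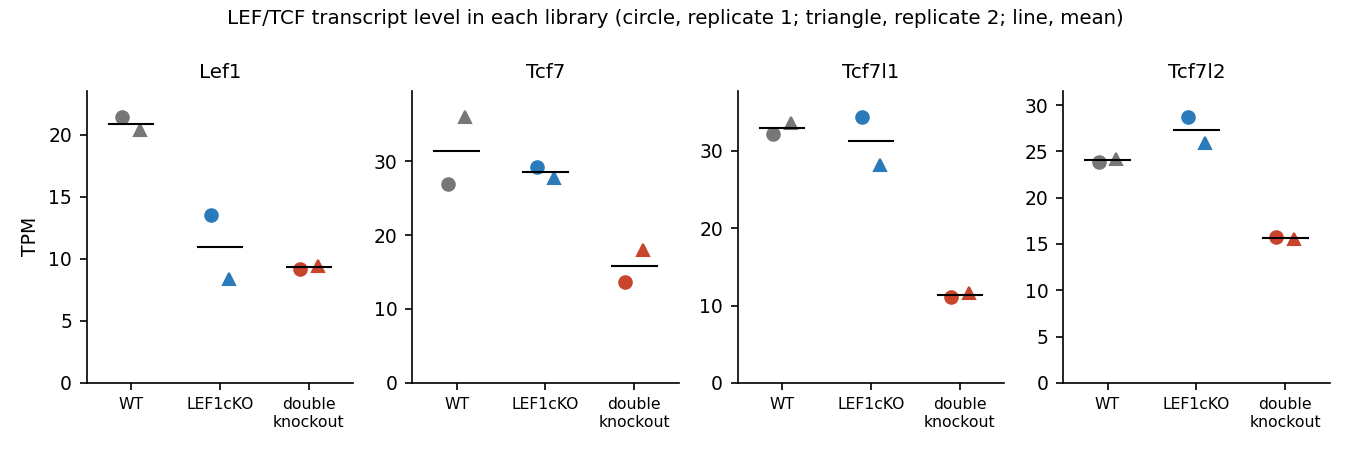
TPM (y axis) of Lef1, Tcf7, Tcf7l1 and Tcf7l2 in each library of the 3 groups (x axis), with circles for replicate 1, triangles for replicate 2 and lines for means. The double knockout libraries lie below both LEF1cKO libraries for Tcf7, Tcf7l1 and Tcf7l2, but between them for Lef1.

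The genes that Wnt signalling is known to induce moved in both directions. Of 20 tested, 6 rose (1 to 6; 30%) and 3 fell (2 to 7; 15%), with a median log2 fold change of 0.08 (0.18 without double knockout replicate 1 and -0.06 without double knockout replicate 2) against 0.01 over all genes tested. Axin2, a feedback inhibitor and standard target, stood at 21.5 and 27.4 TPM in LEF1cKO and 38.7 and 41.3 TPM in the double knockout and rose (0.73 ± 0.12, adjusted p = 0.0139). Sp6, a zinc finger factor of placodes and matrix, rose from 1.46 and 1.53 to 5.48 and 5.03 TPM (1.75 ± 0.25, adjusted p = 0.0121). Notum, Nkd2, Apcdd1 and Myc rose as well, the first 3 being inhibitors of the pathway. The calls of Axin2, Notum, Nkd2, Apcdd1 and Myc were lost without LEF1cKO replicate 1, that of Nkd2 without LEF1cKO replicate 2, those of Notum, Apcdd1 and Myc without double knockout replicate 2, and those of Nkd2, Apcdd1 and Myc without either WT library.

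Those that fell were the stem cell receptors and a cyclin. Lgr5, an R-spondin receptor of hair germ and lower bulge, stood at 111 and 85.7 TPM in LEF1cKO and 32.8 and 50 TPM in the double knockout and fell (-1.29 ± 0.25, adjusted p = 0.0208). Its relative Lgr4 fell from 119.9 and 88.2 to 31.5 and 38.05 TPM (-1.59 ± 0.21, adjusted p = 0.0113). Ccnd1, the cyclin that starts G1, fell from 131 and 152 to 54.1 and 74.6 TPM (-1.17 ± 0.17, adjusted p = 0.0123). The groups were separate for each of these genes, and the Wnt target list held 1 promoter match among 13 promoters. The call of Lgr5 was lost without LEF1cKO replicate 1.

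Ligands also split. Among 17 genes of ligands and their export, 5 rose (1 to 7; 29.4%) and 2 fell (1 to 4; 11.8%), with a median of 0.60 (0.32 without LEF1cKO replicate 1, 1.0 without LEF1cKO replicate 2, 0.37 without double knockout replicate 1, 0.38 without double knockout replicate 2 and 0.27 on the log2(TPM + 1) scale). Wnt3 stood at 4.43 and 9.3 TPM in LEF1cKO and 28.6 and 33.96 TPM in the double knockout and rose (2.14 ± 0.32, adjusted p = 0.0124), Wnt7a went from 0.69 and 1.7 to 7.8 and 11.2 TPM (2.69 ± 0.64) and Wnt10b from 7.87 and 7.18 to 14.3 and 19.6 (1.11 ± 0.22). These signal through beta-catenin in epidermis and follicle. Wnt10a and Wnt16 rose with them. Wnt5a, known for signalling without beta-catenin, fell from 49.8 and 24.3 to 12.5 and 11.3 TPM (-1.81 ± 0.31, adjusted p = 0.0153), and Wnt6 from 32.9 and 28.6 to 13 and 17.3 (-1.09 ± 0.20). The calls of Wnt7a, Wnt10b, Wnt10a, Wnt16 and Wnt6 were lost without LEF1cKO replicate 1, those of Wnt7a, Wnt10b, Wnt10a, Wnt16 and Wnt5a without double knockout replicate 2, and those of Wnt10a and Wnt16 without either WT library.

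Among receptors, falls outnumbered rises. Of 17 receptors and coreceptors, 7 fell (2 to 9; 41.2%) and 1 rose (0 to 2; 5.88%), with a median of -0.49. Fzd1, a Frizzled receptor, stood at 155 and 72.8 TPM in LEF1cKO and 26.01 and 28.9 TPM in the double knockout and fell (-2.13 ± 0.37, adjusted p = 0.0159), and Fzd2 went from 50.7 and 53.8 to 19.1 and 29.9 (-1.15 ± 0.22). Ror1, Ror2, Ryk and Ptk7, single-pass receptors that bind Wnt5a or act in planar polarity, all fell; Ror1 stood at 17.9 and 15.3 TPM against 5.62 and 8.3 TPM and Ryk at 177 and 155 TPM against 99.8 and 108 TPM. Lrp6, a coreceptor of the beta-catenin branch, fell (-0.49 ± 0.13, adjusted p = 0.0445), while its paralog Lrp5 did not pass (-0.13 ± 0.10). Lrp4, a receptor for inhibitors of the pathway, rose (0.96 ± 0.18, adjusted p = 0.0183). The calls of Fzd2, Ror1, Ror2, Ptk7, Lrp6 and Lrp4 were lost without LEF1cKO replicate 1, those of Fzd1, Lrp6 and Lrp4 without double knockout replicate 2, and those of Ror2, Ptk7 and Lrp6 without either WT library.

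Of 14 secreted inhibitors, their receptors and R-spondins, 3 rose (1 to 5; 21.4%) and 1 fell. Sfrp1, a soluble Wnt-binding protein, stood at 47.4 and 65.8 TPM in LEF1cKO and 16.7 and 21.6 TPM in the double knockout and fell (-1.62 ± 0.20, adjusted p = 0.0111). It was the only fall of the list (7.14% against 14.1% of all genes). Dkk2, a ligand of LRP5 and LRP6, went from 0.28 and 0.49 to 4.65 and 2.59 TPM (3.17 ± 0.48, adjusted p = 0.0127), and Kremen1, its receptor, from 34.3 and 41.4 to 57.5 and 53.7 (0.50 ± 0.11). Dkkl1 rose from 5.67 and 3.37 to 19.03 and 17.5 TPM (1.94 ± 0.35). Ctnnb1, beta-catenin itself, stood at 816 and 752 TPM in LEF1cKO and 609 and 635 TPM in the double knockout and did not pass (adjusted p = 0.0802). Among 18 genes of beta-catenin, its coactivators and Groucho corepressors, 4 fell (0 to 5; 22.2%) and 1 rose (1 to 4; 5.56%). The falls were the corepressor Tle3 (-0.58 ± 0.12), the remodeller Smarca4 (-0.63 ± 0.12) and the beta-catenin antagonists Cby1 (-0.61 ± 0.13) and Ctnnbip1 (-0.63 ± 0.13). Jup, or plakoglobin, which links desmosomes to keratin, rose from 293 and 347 to 708 and 642 TPM (1.02 ± 0.12, adjusted p = 0.0108). The calls of Dkk2, Kremen1, Tle3, Smarca4, Cby1 and Ctnnbip1 were lost without LEF1cKO replicate 1, those of Kremen1, Dkkl1, Tle3, Smarca4, Cby1 and Ctnnbip1 without double knockout replicate 2, and those of Kremen1, Tle3, Smarca4, Cby1 and Ctnnbip1 without either WT library. Ctnnb1 passed without LEF1cKO replicate 2.

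Many hair germ and matrix genes fell, among them most homeobox genes named here. Of 32 genes tested, 17 fell (9 to 17; 53.1% against 14.1% of all genes) and 4 rose (2 to 3; 12.5%), with a median of -0.62 (-0.99 without double knockout replicate 2 and -1.14 over genes of at least 10 CPM in 2 libraries). The low ends were 9 falls without LEF1cKO replicate 1 and 2 rises without it or without double knockout replicate 2. Homeobox genes of the matrix had the largest falls in the list. Dlx3, which is needed for hair differentiation, stood at 124 and 64.7 TPM in LEF1cKO and 5.52 and 6.61 TPM in the double knockout, and at 123 and 102 in WT. It fell (-4.04 ± 0.37, adjusted p = 0.0107).

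Dlx1, Dlx2 and Dlx4 fell alongside it. Dlx2 stood at 97.2 and 36.4 TPM in LEF1cKO and 2.57 and 4.25 TPM in the double knockout (-4.34 ± 0.57, adjusted p = 0.0113). Dlx1 went from 28.02 and 10.4 to 1.72 and 2.56 TPM (-3.73 ± 0.53) and Dlx4 from 17.3 and 5.37 to 0.6 and 0.67 (-4.26 ± 0.62). Both double knockout libraries lay far below the LEF1cKO pair for each, and in each pair LEF1cKO replicate 1 was the higher. Dlx5, the remaining member tested, did not pass (0.32 on the log2 scale).

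Msx1, a homeobox gene of germ and matrix, stood at 34.3 and 10.9 TPM in LEF1cKO and 1.11 and 1.17 TPM in the double knockout, against 45.5 and 30.8 in WT. It fell (-4.40 ± 0.63, adjusted p = 0.0121). Msx2 fell from 61.8 and 30.5 to 7.26 and 11.4 TPM (-2.36 ± 0.40). Cux1, a matrix and root sheath factor, stood at 469 and 237 TPM in LEF1cKO and 67.4 and 67.96 TPM in the double knockout and fell (-2.63 ± 0.35, adjusted p = 0.0113). Lhx2, a LIM-homeobox gene of germ and bulge, went from 402 and 368 to 114 and 198 TPM (-1.39 ± 0.27, adjusted p = 0.0198). The call of Lhx2 was lost without LEF1cKO replicate 1 and that of Msx1 without double knockout replicate 2.

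Edar, whose upstream sequence is printed above, stood at 16.9 and 10.04 TPM in LEF1cKO and 6.47 and 5.34 TPM in the double knockout and fell (-1.27 ± 0.28, adjusted p = 0.0271). Of the other 7 ectodysplasin pathway genes tested, Relb, an NF-kappaB subunit, rose (0.67 ± 0.13, adjusted p = 0.0197) and 6 did not pass. In that list 12.5% rose and 12.5% fell, near the 11.2% and 14.1% of all genes. The 4 rises of the germ and matrix list were Foxn1 (1.35 ± 0.22), Ovol1 (1.28 ± 0.34), Wnt10b and Ctsc (1.02 ± 0.16). Foxn1 and Ovol1 encode factors that act in differentiating keratinocytes of both hair and epidermis. The calls of Relb and Foxn1 were lost without LEF1cKO replicate 1, that of Ovol1 without LEF1cKO replicate 2, and those of Edar, Relb and Ovol1 without double knockout replicate 2 or either WT library.

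Root sheath keratins were already lower in LEF1cKO replicate 2 than in replicate 1, and lower still in the double knockout. Of 24 shaft and sheath genes, 9 fell (4 to 10; 37.5%) and 4 rose (1 to 4; 16.7%), with a median of -0.89 (-0.49 without LEF1cKO replicate 1, -0.32 without double knockout replicate 1, 0.37 over genes of at least 10 CPM in 2 libraries, -0.47 on the log2(TPM + 0.1) scale, -0.10 on the log2(TPM + 1) scale and -1.37 with a replicate block and only the knockout libraries). Krt28, an inner root sheath keratin, stood at 147 and 43.9 TPM in LEF1cKO and 4.63 and 3.6 TPM in the double knockout, with 175 and 146 in WT (-4.63 ± 0.63, adjusted p = 0.0115). Krt73, of the sheath cuticle, went from 5.39 and 2.39 to 0.18 and 0.36 TPM (-3.90 ± 0.57), and Krt75, of the companion layer, from 6.41 and 2.6 to 0.2 and 0.36 (-4.09 ± 0.60). Krt25 (13.2 and 2.08 TPM against 0.07 and 0.07 TPM), Krt27, Krt71, Krt35, Krt83 and Padi3 were the other falls. These genes are close paralogs, so shared reads could move counts between them. The calls of Krt27, Krt35 and Krt83 were lost without LEF1cKO replicate 1, those of Krt25, Krt27, Krt71, Krt83 and Padi3 without double knockout replicate 2, and those of Krt35 and Krt83 without either WT library.

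The rises were not keratins of the inner root sheath, and of the companion layer Krt6a rose where Krt75 fell. Krt6a, made in the companion layer and in wounded epidermis, stood at 35.2 and 55.04 TPM in LEF1cKO and 116 and 146 TPM in the double knockout, and at 157 and 166 in WT, so that its level in the double knockout was nearer WT than LEF1cKO was (1.49 ± 0.21, adjusted p = 0.0121). It shares long stretches with Krt6b, and the split between them is uncertain. Tgm3, a transglutaminase of shaft and cornified layer, rose (1.67 ± 0.28, adjusted p = 0.0153), as did Krt32 (1.73 ± 0.32) and Lgals7 (0.79 ± 0.19). The calls of Tgm3, Krt32 and Lgals7 were lost without LEF1cKO replicate 1 and that of Lgals7 without double knockout replicate 2 or either WT library.

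Bulge genes did not move as a block. Of 24 tested, 7 fell (2 to 7; 29.2%) and 5 rose (1 to 10; 20.8%), with a median of 0.40 (0.04 without LEF1cKO replicate 1, 0.77 without LEF1cKO replicate 2 and 0.15 without double knockout replicate 2). The falls included transcription factors: besides Tcf7l1, Lhx2 and Sox9, these were Nfib (159 and 136 TPM against 76.3 and 69.2 TPM; -1.03 ± 0.14, adjusted p = 0.0113) and Tbx1 (-1.55 ± 0.32). The rises were of surface and secreted proteins: besides Cd34 and Itga6, these were Col17a1, a hemidesmosome collagen (284 and 433 TPM against 734 and 844 TPM; 1.08 ± 0.21, adjusted p = 0.0198), Ctgf (29.7 and 34.3 TPM against 65.3 and 95.5 TPM; 1.28 ± 0.18, adjusted p = 0.0121) and Ccdc3 (1.41 ± 0.34). Krt15, the bulge keratin, stood at 784 and 1239 TPM in LEF1cKO and 1438 and 2310.4 TPM in the double knockout and did not pass (adjusted p = 0.0784). The calls of Tbx1, Ctgf and Ccdc3 were lost without LEF1cKO replicate 1, those of Col17a1 and Ccdc3 without double knockout replicate 2, and that of Ccdc3 without either WT library. Krt15 passed without LEF1cKO replicate 2.

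Several hedgehog genes fell. Sonic hedgehog made by the germ and matrix acts through Ptch1 and Smo on the Gli factors, and drives division of the growing follicle. Of 18 genes, 10 fell (5 to 10; 55.6% against 14.1%), 8 did not pass, and none rose with all libraries (0 to 1 in the leave-out fits), with a median of -0.76. Without LEF1cKO replicate 1, 5 fell. The ligand Shh itself stood at 7.55 and 9.72 TPM in LEF1cKO and 5.89 and 5.99 TPM in the double knockout, a small fall (-0.60 ± 0.15, adjusted p = 0.0372). The call of Ptch1 was lost without LEF1cKO replicate 1 and that of Shh without LEF1cKO replicate 2, double knockout replicate 2 or either WT library.

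Among the receptors, Ptch1, which is also a target, stood at 207 and 193 TPM in LEF1cKO and 48.7 and 80.2 TPM in the double knockout and fell (-1.70 ± 0.27, adjusted p = 0.0138). Smo, the signal transducer, went from 125 and 132 to 60.95 and 75.7 TPM (-0.97 ± 0.14, adjusted p = 0.0121). Hhip, a target that binds and traps the ligand, stood at 10.5 and 8.58 TPM in LEF1cKO and 0.94 and 0.5 TPM in the double knockout, and at 3.46 and 4.65 in WT. It fell (-3.95 ± 0.27, adjusted p = 0.0107), and LEF1cKO, not WT, was the highest group. Gli3 went from 22.98 and 18.9 to 10.02 and 11.2 (-0.97 ± 0.13), while Gli1 and Gli2 fell by 1.18 and 0.92 on the log2 scale. Foxe1, a forkhead target of hedgehog in follicles, stood at 15.7 and 5.57 TPM in LEF1cKO and 0.03 and 0.38 TPM in the double knockout and had a much larger fall (-5.74 ± 0.93, adjusted p = 0.0141). The calls of Gli1 and Gli2 were lost without LEF1cKO replicate 1 or either WT library.

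BMP genes rose and fell. BMP signals hold the follicle at rest and later drive hair differentiation. Of 29 genes, 7 rose (2 to 8; 24.1%) and 5 fell (1 to 8; 17.2%), with a median of 0.14. Bmp2 stood at 2.91 and 5.04 TPM in LEF1cKO and 15.5 and 15.9 TPM in the double knockout and rose (1.93 ± 0.26, adjusted p = 0.0114). Bmp3 rose from 0.85 and 0.97 to 3.97 and 5.87 TPM (2.37 ± 0.43), and Bmp4 and Bmp7 rose by less than 2-fold. The extracellular inhibitors Chrd (0.5 and 0.37 TPM against 1.96 and 2.9 TPM; 2.42 ± 0.35) and Chrdl1 (0.07 and 0.12 TPM against 1.48 and 0.72 TPM; 3.70 ± 0.67) rose too, as did the receptor Bmpr1b (2.01 ± 0.50). The calls of Bmp3, Bmp4, Bmp7, Chrdl1 and Bmpr1b were lost without LEF1cKO replicate 1, that of Bmpr1b without LEF1cKO replicate 2, those of Bmp3, Bmp4, Bmp7 and Bmpr1b without double knockout replicate 2, and those of Bmp4 and Bmp7 without either WT library.

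The falls were inside the cell or at the receptor. Smad6, an inhibitory Smad that BMP induces, stood at 9.89 and 9.27 TPM in LEF1cKO and 4.81 and 4.8 TPM in the double knockout and fell (-1.03 ± 0.14, adjusted p = 0.0115), with Smad7, Smad9, Bmpr1a and the decoy receptor Bambi. Of the 4 Id genes, targets of BMP that block differentiation factors, Id3 went from 296 and 157 to 55.9 and 87.1 TPM (-1.80 ± 0.38, adjusted p = 0.0231) and Id4 from 47.9 and 32.1 to 10.8 and 11.1 (-1.94 ± 0.25, adjusted p = 0.0111). Id1 and Id2 did not pass, at -0.64 and -0.17, so that 50% of these 4 genes fell against 14.1% of all genes. The calls of Smad7, Smad9, Bmpr1a, Bambi and Id3 were lost without LEF1cKO replicate 1, those of Bmpr1a, Bambi and Id3 without double knockout replicate 2, and those of Smad7, Smad9, Bmpr1a and Bambi without either WT library. Id2 passed without LEF1cKO replicate 2.

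In the TGF-beta list, 5 of 23 rose (2 to 7; 21.7%) and 5 fell (2 to 11; 21.7%). Tgfb3, a ligand, stood at 81.7 and 95.6 TPM in LEF1cKO and 19.7 and 34.1 TPM in the double knockout and fell (-1.77 ± 0.27, adjusted p = 0.0128). Smad3, a transducer, went from 18.9 and 18.3 to 10.7 and 10.8 (-0.88 ± 0.10, adjusted p = 0.0108) and Tmeff1, a hair germ target of TGF-beta, from 17.1 and 12.8 to 7.45 and 5.62 (-1.18 ± 0.21). Tgfbi, a secreted target, rose from 67.2 and 110.1 to 235 and 232 (1.34 ± 0.20, adjusted p = 0.0124), and Eng, one of the rises, is also a marker of vessel cells. The call of Eng was lost without LEF1cKO replicate 1 or either WT library and that of Tmeff1 without double knockout replicate 2.

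Notch genes were mostly below the threshold. Of 24, 3 rose (0 to 3; 12.5%) and 1 fell (0 to 3; 4.17%). Notch2, a receptor, rose from 10.5 and 14.2 to 24.8 and 19.3 TPM (0.78 ± 0.16, adjusted p = 0.0238). Notch3 (6.88 and 13.5 TPM against 30.1 and 22.5 TPM) and the ligand Dll4 (0.07 and 0.2 TPM against 2.8 and 0.55 TPM) rose with the vessel markers described below, where Notch3 is also listed. Hes5, a target, was the fall, but at 0.33 and 0.15 TPM in LEF1cKO and listed at 0 in both double knockout libraries. The calls of Notch2, Dll4 and Hes5 were lost without LEF1cKO replicate 1 or either WT library, that of Dll4 without LEF1cKO replicate 2, those of Notch3 and Hes5 without double knockout replicate 2, and that of Notch3 without WT replicate 2.

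Several growth factors of the FGF and EGF families rose. Of 35 genes, 10 rose (5 to 10; 28.6%) and 3 fell (0 to 5; 8.57%), with a median of 0.46 (0.86 without LEF1cKO replicate 1, 0.26 without LEF1cKO replicate 2, 0.21 without double knockout replicate 1 and 0.03 over genes of at least 10 CPM in 2 libraries). The EGF receptor ligands Hbegf (20.6 and 22.5 TPM against 52.8 and 58.8 TPM; 1.31 ± 0.11, adjusted p = 0.0107) and Tgfa (3.03 and 5.32 TPM against 10.5 and 12.4 TPM; 1.49 ± 0.24, adjusted p = 0.0136) rose, and Btc and Nrg1 with them. Fgf13, an intracellular FGF-like protein, went from 0.89 and 1.33 to 5.27 and 3.8 (2.04 ± 0.33) and Fgf7, a ligand usually made by fibroblasts, from 0.42 and 0.54 to 4.14 and 2.35 (2.72 ± 0.50). Of the receptors Egfr (-0.60 ± 0.14) and Fgfr2 (-0.85 ± 0.18) fell while Erbb3 rose (0.58 ± 0.11, adjusted p = 0.018). The third fall was Fgf2 (-1.77 ± 0.43). The calls of Btc, Nrg1, Fgf7, Egfr, Fgfr2, Erbb3 and Fgf2 were lost without LEF1cKO replicate 1, that of Btc without LEF1cKO replicate 2, those of Btc, Nrg1, Egfr, Fgfr2 and Fgf2 without double knockout replicate 2, and those of Btc, Nrg1, Egfr, Fgfr2, Erbb3 and Fgf2 without either WT library.

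The genes of cell division fell almost without exception, and evenly. Of 42 DNA replication genes, 41 fell (29 to 41; 97.6% against 14.1% of all genes) with a median of -1.02. Only Gins2 did not pass, at -0.34 (adjusted p = 0.0826), and the low end of the range was 29, without LEF1cKO replicate 1. Mcm10, which starts unwinding at origins, stood at 43.4 and 35.5 TPM in LEF1cKO and 15.96 and 15.9 TPM in the double knockout, and at 39.3 and 41.5 in WT. It fell (-1.38 ± 0.16, adjusted p = 0.0108). Cdc45, of the replicative helicase, went from 52.4 and 46.7 to 22.6 and 23.8 TPM (-1.15 ± 0.12, adjusted p = 0.0107).

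Enzymes that make nucleotides behaved alike: Tk1 went from 229.7 and 223 to 92.5 and 96.5 TPM (-1.31 ± 0.10) and Tyms from 177 and 171 to 74.4 and 89.5 (-0.997 ± 0.12). The groups were separate in both. The 6 Mcm2 to Mcm7 helicase subunits fell by 0.96 to 1.36 on the log2 scale. The calls of Mcm3, Mcm4 and Mcm6 were lost without LEF1cKO replicate 1.

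Of 46 mitosis and kinetochore genes, 45 fell (39 to 45; 97.8%) with a median of -1.21. Birc5, or survivin, stood at 147 and 133 TPM in LEF1cKO and 59.96 and 54.9 TPM in the double knockout, and at 161 and 154 in WT (-1.22 ± 0.11, adjusted p = 0.0107). Aurka, a spindle kinase, went from 67.3 and 58.1 to 25.04 and 24.7 TPM (-1.38 ± 0.13, adjusted p = 0.0107), Ccnb2, a mitotic cyclin, from 126 and 114 to 53.3 and 49.3 (-1.29 ± 0.12) and Cenpa, the centromere histone, from 171 and 175 to 89.1 and 83.4 (-0.98 ± 0.09). Spc24, of the kinetochore, fell by 1.21. Mki67 and Top2a, common marks of cycling cells, fell by 1.29 and 1.39. The single exception was Pttg1, or securin, which rose (22.7 and 27.3 TPM against 36.4 and 35.3 TPM; 0.51 ± 0.12, adjusted p = 0.0308) and in LEF1cKO lay below its WT level of 68.9 and 64.1. The call of Pttg1 was lost without LEF1cKO replicate 1 or either WT library and those of Top2a and Pttg1 without double knockout replicate 2.

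Upstream of division, 16 of 32 G1 regulators and CDK inhibitors fell (8 to 16; 50%) and 5 rose (1 to 4; 15.6%), with a median of -0.57 (-0.35 without LEF1cKO replicate 1). The falls without LEF1cKO replicate 1 numbered 8. Ccne2 (21.9 and 25.1 TPM against 12.9 and 13.7 TPM; -0.92 ± 0.11) and the E2F target E2f8 (27.2 and 26.8 TPM against 14.4 and 13.6 TPM; -1.02 ± 0.10) fell with Rbl1 (-0.95 ± 0.12), Ccnd1, Ccnd2 and Cdk4. Cdkn1a, the inhibitor p21, stood at 115 and 126 TPM in LEF1cKO and 286 and 239 TPM in the double knockout, and at 85.2 and 90.8 in WT. It rose (1.06 ± 0.11, adjusted p = 0.0107), as did Cdkn2b, while the inhibitor Cdkn2c, whose level follows division in many cells, fell (-0.81 ± 0.10, adjusted p = 0.0113). Mycn and Mycl fell where Myc rose. The calls of Cdkn2b, Mycn and Mycl were lost without LEF1cKO replicate 1 or either WT library, that of Mycn without LEF1cKO replicate 2, and those of Ccnd2, Cdkn2b and Mycl without double knockout replicate 2.

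Cdkn1a is also the best-known p53 target. The p53 list was called about as often as all genes, of which 11.2% rose and 14.1% fell. Of 21 genes 3 rose (1 to 5; 14.3%) and 2 fell (0 to 3; 9.52%), with a median of 0.12 (0.23 without LEF1cKO replicate 2). Perp, a desmosome protein (936 and 1009 TPM against 1587 and 1610.3 TPM; 0.66 ± 0.13, adjusted p = 0.0196), and the stress gene Sesn2 (11.6 and 13.1 TPM against 19.5 and 24.1 TPM; 0.76 ± 0.14, adjusted p = 0.019) were the other rises. Trp53 itself (189 and 176 TPM against 114 and 141 TPM; -0.56 ± 0.14, adjusted p = 0.0378) and the death effector Bax (78.7 and 91.1 TPM against 46 and 65.1 TPM; -0.67 ± 0.18, adjusted p = 0.0447) fell. The calls of Perp, Sesn2, Trp53 and Bax were lost without LEF1cKO replicate 1, that of Bax without LEF1cKO replicate 2, those of Perp and Sesn2 without double knockout replicate 2, and those of Perp, Trp53 and Bax without either WT library.

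**Figure D3:**
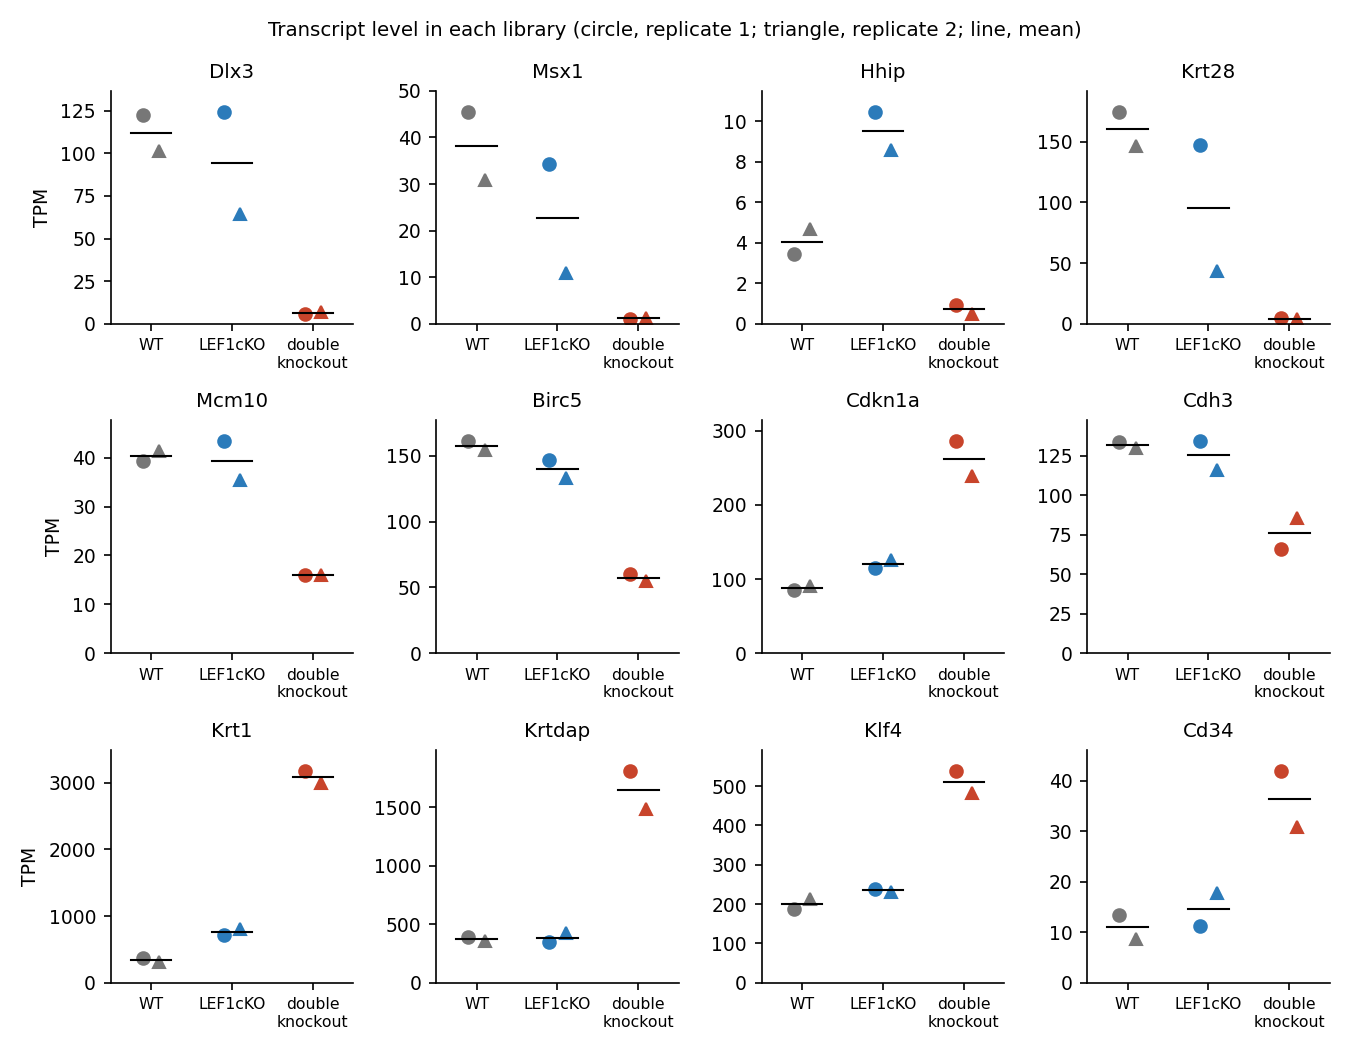
TPM (y axis, from 0) of 12 named genes in each library of the 3 groups (x axis), with circles for replicate 1, triangles for replicate 2 and lines for means. Dlx3, Msx1, Hhip, Krt28, Mcm10, Birc5 and Cdh3 are lower, and Cdkn1a, Krt1, Krtdap, Klf4 and Cd34 higher, in both double knockout libraries than in both LEF1cKO libraries.

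Many genes of epidermal differentiation rose. These are made above the basal layer, where keratinocytes stop dividing, and are not typical of hair germ. Of 25 suprabasal keratin and adhesion genes, 19 rose (17 to 20; 76% against 11.2% of all genes) and none fell with all libraries or any 1 left out, with a median of 1.68. Krt1, which pairs with Krt10, stood at 722 and 807 TPM in LEF1cKO and 3181 and 2996 TPM in the double knockout, and at 367 and 315 in WT. It rose (1.95 ± 0.16, adjusted p = 0.0107). Krt10 went from 1493 and 1440.0 to 5916 and 5887 TPM (1.94 ± 0.20).

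Krtdap, printed above, stood at 348 and 423 TPM in LEF1cKO and 1811 and 1482 TPM in the double knockout and rose (1.94 ± 0.12, adjusted p = 0.0107). Sbsn and Dmkn, secreted proteins of the same layers, went from 288 and 284 to 881 and 823 TPM (1.60 ± 0.15) and from 423 and 448 to 1116 and 1057 (1.43 ± 0.12). Krt78 rose as well (10.5 and 9 TPM against 42.6 and 46.2 TPM; 2.12 ± 0.17). Summed over the list, the level went from 4654 and 5456 TPM in LEF1cKO to 18843 and 16858 in the double knockout, and WT libraries held 3357 and 2948. Desmosomal genes that basal cells also make, Dsc2, Dsg2 and Dsg3, did not pass.

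Of 39 cornified envelope and barrier genes, 17 rose (13 to 20; 43.6%) and none fell with all libraries, with a median of 1.22. Ppl (40.98 and 50.98 TPM against 134 and 143 TPM; 1.54 ± 0.12, adjusted p = 0.0107) and Evpl (28.9 and 39.4 TPM against 92.04 and 73.9 TPM; 1.22 ± 0.16, adjusted p = 0.0113) encode the plakins of the envelope. Casp14, the protease that processes filaggrin, went from 11.4 and 12.2 to 38.96 and 31.2 TPM (1.51 ± 0.17). Grhl3 and Klf4, factors needed for the barrier, went from 8.33 and 10.03 to 29.2 and 23.4 TPM (1.46 ± 0.14, adjusted p = 0.0107) and from 239.7 and 229.9 to 539 and 481 (1.05 ± 0.14, adjusted p = 0.0113). The late genes Lor, Flg and Flg2 did not pass, at 0.68, 1.29 and 2.76 on the log2 scale. Lor and Flg passed without LEF1cKO replicate 1 and Flg without LEF1cKO replicate 2.

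In the list of interfollicular basal and upper follicle genes, 7 of 22 rose (3 to 12; 31.8%) and 1 fell (0 to 2; 4.55%), with a median of 0.90 (0.52 without LEF1cKO replicate 1 and 0.54 without double knockout replicate 2). Aqp3, a glycerol channel, stood at 77.1 and 109 TPM in LEF1cKO and 305 and 290.1 TPM in the double knockout and rose (1.58 ± 0.14, adjusted p = 0.0107). Ly6d, of the upper follicle and differentiating layers, went from 280.1 and 421 to 1034 and 1106 TPM (1.56 ± 0.18, adjusted p = 0.0108), Cst6 from 17 and 27.8 to 161 and 103 (2.502 ± 0.39) and Klk10 from 4.58 and 3.54 to 9.18 and 9.89 (1.16 ± 0.27). Krt14, the basal keratin, rose from 2757 and 4272 to 6699 and 8368 (1.08 ± 0.25, adjusted p = 0.0295), while its partner Krt5 did not pass (0.39 ± 0.22). The calls of Cst6, Klk10 and Krt14 were lost without LEF1cKO replicate 1, that of Klk10 without LEF1cKO replicate 2, and those of Klk10 and Krt14 without double knockout replicate 2 or either WT library.

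The sebaceous list had a median of 1.54 (0.92 without LEF1cKO replicate 1, 2.82 without LEF1cKO replicate 2 and 0.84 without double knockout replicate 1) and few calls: 1 of 23 rose (1 to 13; 4.35%) and 3 fell (1 to 3; 13.04%). LEF1cKO replicate 2 already had a summed level of 1349 TPM where replicate 1 had 512, and the double knockout libraries had 3550.1 and 1479.7. With LEF1cKO replicate 2 left out, 13 rose. Dgat2, which makes triglyceride, rose (12.8 and 19.4 TPM against 57.4 and 42.3 TPM; 1.57 ± 0.22, adjusted p = 0.0119). Fads1 (32.9 and 34.01 TPM against 18.6 and 17.3 TPM; -0.96 ± 0.09, adjusted p = 0.0107) and Fads2 (12.7 and 21.9 TPM against 10.1 and 7.97 TPM; -0.99 ± 0.25, adjusted p = 0.0355), desaturases, fell, as did Prdm1 (6.85 and 6.55 TPM against 4.58 and 4.31 TPM; -0.59 ± 0.12, adjusted p = 0.0238), which is also in the germ and matrix list. The call of Prdm1 was lost without LEF1cKO replicate 1 and those of Fads2 and Prdm1 without double knockout replicate 2 or either WT library.

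Wound and activation genes rose in part. Of 29, 11 rose (4 to 11; 37.9%) and 1 fell (0 to 1; 3.45%), with a median of 1.07. Il1rn, the interleukin-1 receptor antagonist, stood at 8.89 and 9.47 TPM in LEF1cKO and 39.1 and 32.3 TPM in the double knockout and rose (1.75 ± 0.13, adjusted p = 0.0107). Mmp9, a protease of migrating keratinocytes and myeloid cells, went from 0.42 and 0.32 to 1.63 and 1.38 TPM (2.55 ± 0.36, adjusted p = 0.0119) and Cxcl1 from 10.1 and 9.83 to 18.2 and 22.1 (1.01 ± 0.18). Stat3 rose by less (0.66 ± 0.14, adjusted p = 0.0223), and its groups overlapped in TPM (165 and 97.05 TPM against 183 and 159 TPM). Krt16 and Krt17, partners of Krt6a, did not pass, and Tnc fell. The calls of Cxcl1 and Tnc were lost without LEF1cKO replicate 1, that of Stat3 without double knockout replicate 2, and those of Cxcl1 and Stat3 without WT replicate 2.

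Stress programmes were called in part. Immediate early genes, which respond to handling as well as to signals, had 6 rises in 25 (2 to 8; 24%), among them Klf2 (1.03 ± 0.19, adjusted p = 0.0178), Fosb (0.91 ± 0.21, adjusted p = 0.0276), Zfp36 (1.04 ± 0.24, adjusted p = 0.0292) and Nr4a2 (1.25 ± 0.32). Fos, Jun and Egr1 did not pass, at 0.46, 0.01 and 0.53. Of 22 heat shock and unfolded protein genes, 4 rose (1 to 4; 18.2%) and 5 fell (1 to 5; 22.7%). The falls were cytosolic and mitochondrial chaperones, such as Hsp90aa1 (573 and 442 TPM against 262 and 274 TPM; -1.05 ± 0.18, adjusted p = 0.0159), Hspe1 (-0.76 ± 0.14) and Hspd1 (-0.66 ± 0.12), and Xbp1, a factor of the secretory pathway, rose (0.57 ± 0.10, adjusted p = 0.0163). Of 30 interferon-stimulated genes, only Ifit3 (1.34 ± 0.38, adjusted p = 0.0472) and Mx2 (1.18 ± 0.29, adjusted p = 0.0343) rose. That was 6.67% of the list against 11.2% of all genes. The list median was 0.74 (0.38 without LEF1cKO replicate 1, 1.26 without LEF1cKO replicate 2 and 0.45 without double knockout replicate 2). The calls of Klf2, Fosb, Zfp36, Hspe1, Hspd1, Xbp1, Ifit3 and Mx2 were lost without LEF1cKO replicate 1, those of Nr4a2 and Mx2 without LEF1cKO replicate 2, those of Fosb, Zfp36, Nr4a2, Hspd1, Ifit3 and Mx2 without double knockout replicate 2, those of Hspe1 and Xbp1 without WT replicate 2, and those of Nr4a2, Ifit3 and Mx2 without either WT library.

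Of 19 clock genes, 6 rose (3 to 6; 31.6%) and none fell with all libraries (0 to 4 in the leave-out fits). Arntl, or Bmal1, went from 9.08 and 15.2 to 23.9 and 22.3 TPM (0.88 ± 0.21, adjusted p = 0.0324) and its relative Npas2 from 0.63 and 1.14 to 4.24 and 2.68 (1.81 ± 0.39). Rora, which induces Arntl, stood at 6.68 and 6.62 TPM in LEF1cKO and 32.5 and 22.1 TPM in the double knockout and rose (2.01 ± 0.21, adjusted p = 0.0107), and Bhlhe41 (1.17 ± 0.23) and Hlf (1.35 ± 0.23) rose as well. Per1 to Per3, Cry1 and Cry2 did not pass. The labels give no time of day of collection. The calls of Npas2 and Hlf were lost without LEF1cKO replicate 1, that of Arntl without double knockout replicate 2, and those of Arntl and Npas2 without either WT library. Per1 passed without LEF1cKO replicate 1 and Cry1 and Cry2 without LEF1cKO replicate 2.

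Basement membrane genes moved in both directions. Of 40, 11 rose (2 to 13; 27.5%) and 8 fell (6 to 8; 20%). Col4a1 and Col4a2, the paired chains of type IV collagen, went from 195 and 174 to 81.8 and 81.6 TPM (-1.25 ± 0.13, adjusted p = 0.0107) and from 111 and 92.5 to 52.3 and 50.9 (-1.04 ± 0.14, adjusted p = 0.0118). Hspg2, or perlecan, fell (170.2 and 167 TPM against 86.6 and 91.5 TPM; -1.08 ± 0.14, adjusted p = 0.0111), and so did the laminin chain Lamb1 (117 and 83.6 TPM against 38.8 and 38.4 TPM; -1.39 ± 0.20). Lama1 rose (0.28 and 0.31 TPM against 1.38 and 1.03 TPM; 1.95 ± 0.28, adjusted p = 0.0121), with Col17a1, Col7a1, Itgb4 and Itga6 of the hemidesmosome and anchoring fibrils. The calls of Col7a1 and Itgb4 were lost without LEF1cKO replicate 1 and that of Itgb4 without double knockout replicate 2 or either WT library.

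Of the metabolic lists, that of glycolysis and the citric acid cycle held the most calls. In glycolysis and the citric acid cycle, 6 of 31 rose (0 to 9; 19.4%) and 5 fell (1 to 7; 16.1%). The rises were glycolytic, among them Pfkp (75.2 and 112 TPM against 184 and 202 TPM; 1.003 ± 0.18) and Aldoa (323 and 453 TPM against 681 and 677 TPM; 0.74 ± 0.15). Among the 5 falls were Idh3a (103 and 103 TPM against 61.7 and 68.2 TPM, -0.73 ± 0.11, adjusted p = 0.0121), Mdh2 (-0.51 ± 0.10) and Fh1 (-0.47 ± 0.10) of the cycle. Mdh1 fell as well. No cholesterol synthesis gene passed (0 to 5 rose in the leave-out fits), and Hmgcs1, which acts early in that pathway, had adjusted p = 0.305. Of 43 ribosomal protein genes, only Rpl27 passed, with a fall (-0.65 ± 0.18, adjusted p = 0.0469), which was 2.33% of the list against 14.1% of all genes. The list median was -0.27 (-0.11 without double knockout replicate 1, -0.45 without double knockout replicate 2 and -0.14 over genes of at least 10 CPM in 2 libraries). The calls of Aldoa, Mdh2, Fh1, Mdh1 and Rpl27 were lost without LEF1cKO replicate 1 or either WT library, that of Rpl27 without LEF1cKO replicate 2, and those of Pfkp, Aldoa, Fh1 and Mdh1 without double knockout replicate 2.

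**Figure D4:**
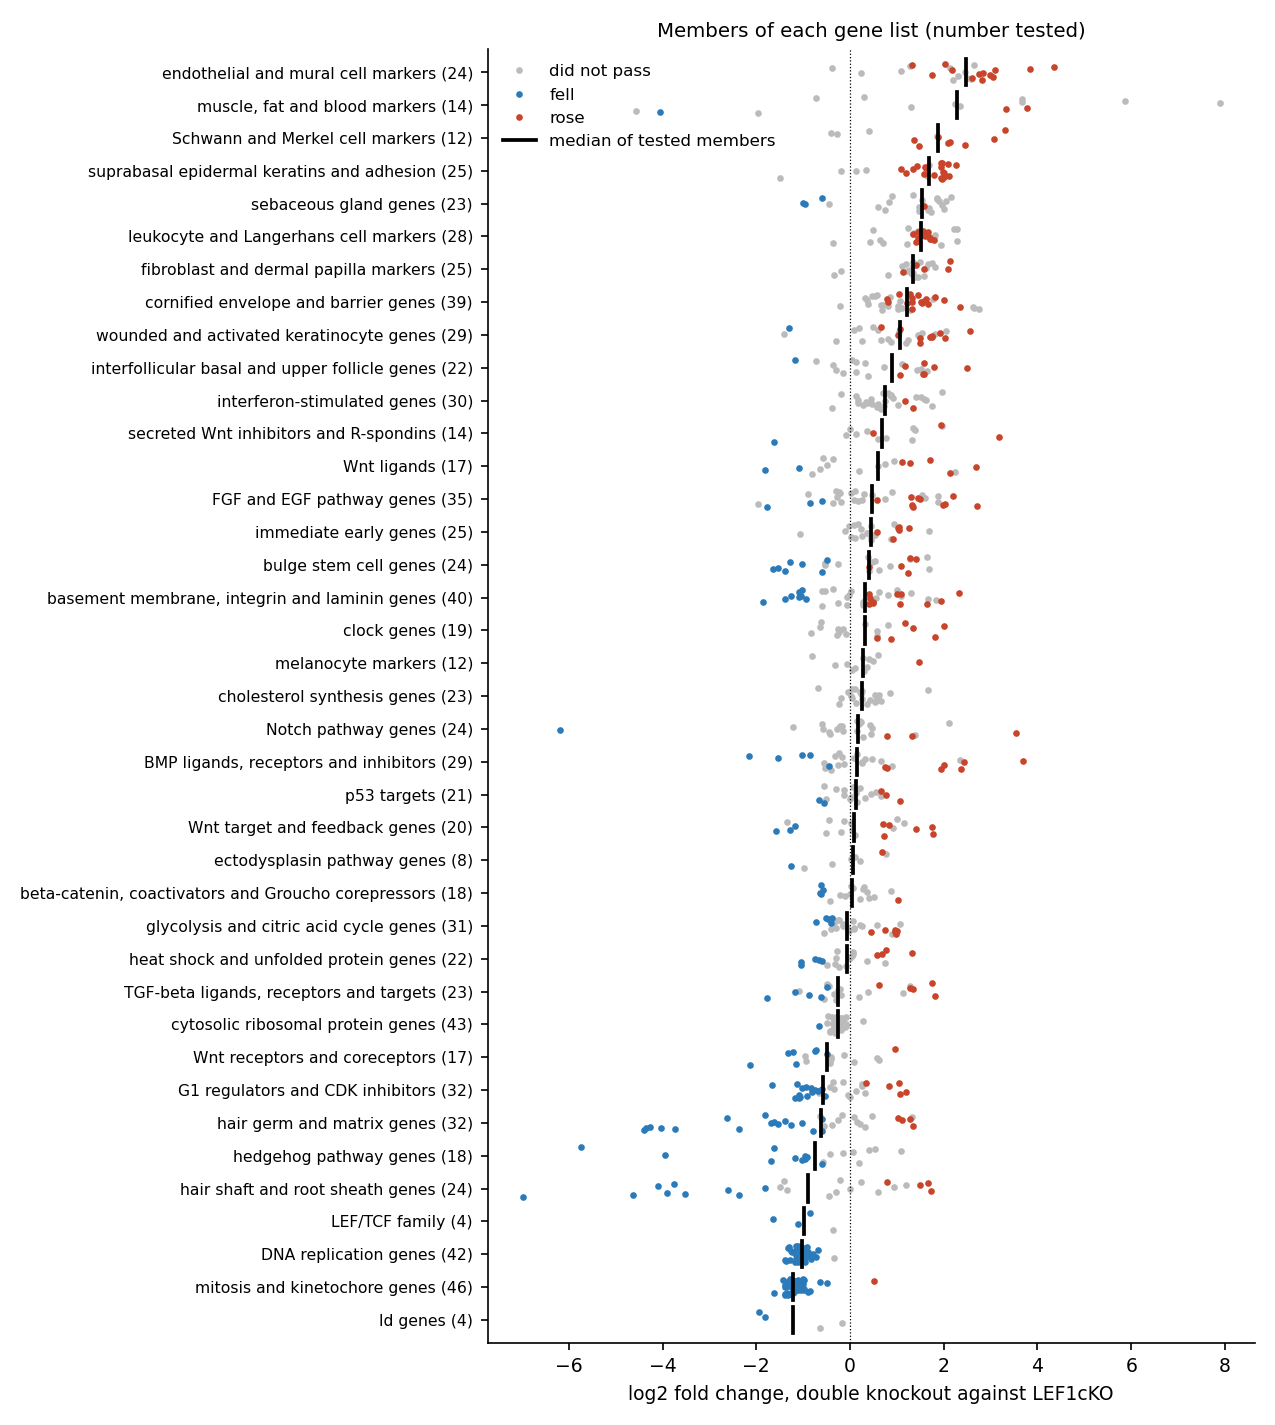
Log2 fold change of the double knockout against LEF1cKO (x axis) for each tested member of 39 gene lists (y axis, number tested in brackets), coloured red where it rose, blue where it fell and grey where it did not pass, with the median as a black bar. DNA replication and mitosis genes lie in a narrow band near -1, while hair germ, hedgehog and root sheath genes reach below -3 and markers of vessel, muscle and Schwann cells reach above 3.

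Markers of cells other than keratinocytes, apart from melanocytes, were higher in sum in the double knockout, beside all of the rises above. None of the fibroblast, vessel, leukocyte, Schwann or melanocyte markers tested was at 0 in any knockout library. The 25 fibroblast and dermal papilla markers summed to 821 and 1457 TPM in LEF1cKO against 3345 and 2567 in the double knockout, with 769.9 and 453 in WT. Only 5 passed (1 to 11; 20%), although 23 were higher in both double knockout libraries than in both of LEF1cKO, which 35.0% of all genes were. Dcn, a stromal proteoglycan, rose (88.01 and 154 TPM against 267 and 282 TPM; 1.13 ± 0.30, adjusted p = 0.042), with Vim (159 and 170.4 TPM against 599 and 385 TPM; 1.59 ± 0.26, adjusted p = 0.0145), Pdgfrb (2.09 ± 0.54), Enpp2 (2.14 ± 0.31) and Thy1 (1.40 ± 0.34). Col1a1 stood at 88.2 and 206 TPM in LEF1cKO and 430.3 and 361 TPM in the double knockout and did not pass. The calls of Dcn, Vim, Pdgfrb and Thy1 were lost without LEF1cKO replicate 1, those of Dcn, Pdgfrb and Thy1 without double knockout replicate 2, and that of Pdgfrb without either WT library.

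Of 28 leukocyte and Langerhans cell markers, 12 rose (1 to 16; 1 without LEF1cKO replicate 1 or double knockout replicate 2), or 42.9%. Their sum was 384 and 640.1 TPM in LEF1cKO against 1686 and 1563 in the double knockout, with 262 and 117 in WT. Cd207, or langerin, which marks Langerhans cells, stood at 2.14 and 2.58 TPM in LEF1cKO and 6.54 and 9.34 TPM in the double knockout (1.69 ± 0.30, adjusted p = 0.0165). H2-Eb1, an MHC class II chain, went from 48.2 and 82.95 to 189 and 183 (1.45 ± 0.35), Cd68 from 10.5 and 12.3 to 29.6 and 24.02 (1.35 ± 0.19) and Itgam from 2.31 and 1.55 to 5.75 and 4.93 (1.59 ± 0.32). The calls of Cd207, H2-Eb1 and Itgam were lost without LEF1cKO replicate 1 or double knockout replicate 2 and that of Itgam without LEF1cKO replicate 2.

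Vessel markers rose in part. Of 24 endothelial and mural markers, 13 rose (2 to 17; 54.2%), with a median of 2.47 (1.23 without double knockout replicate 1 and 1.44 on the log2(TPM + 1) scale). The sum was 113 and 122 TPM in LEF1cKO against 472 and 224 in the double knockout, where replicate 1 was higher. Acta2 and Myh11, of smooth muscle, went from 5.22 and 5.81 to 115 and 52.01 TPM (3.85 ± 0.56, adjusted p = 0.0121) and from 0.91 and 1.83 to 41.8 and 16.7 (4.36 ± 0.63, adjusted p = 0.0121). Cldn5 and Lyve1, of blood and lymph vessels, went from 0.88 and 1.23 to 11.4 and 4.39 (2.83 ± 0.56) and from 0.34 and 0.63 to 6.3 and 2.4 (3.09 ± 0.54). Abcc9, of pericytes, rose too (2.03 ± 0.45). The calls of Acta2, Cldn5, Lyve1 and Abcc9 were lost without LEF1cKO replicate 1 and that of Abcc9 without LEF1cKO replicate 2.

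Schwann and Merkel cell markers had 8 rises in 12 (4 to 7; 66.7%), with sums of 51.3 and 61.8 TPM in LEF1cKO against 239.9 and 165 in the double knockout. The myelin genes Mbp (4.81 and 8.16 TPM against 46.8 and 27.7 TPM; 2.14 ± 0.29, adjusted p = 0.0113) and Pmp22 (28.3 and 31.2 TPM against 84.4 and 71.2 TPM; 1.36 ± 0.12, adjusted p = 0.0107) rose. The Merkel keratins Krt8 and Krt18 did not pass, at -0.28 and -0.40. Sox10, shared with melanocytes, rose (1.47 ± 0.17, adjusted p = 0.0108), but it was the only one of 12 melanocyte markers to do so (8.33% against 11.2% of all genes). The sum of the melanocyte markers stood at 409.9 and 272 TPM in LEF1cKO, and at 305 and 538 in the double knockout, with overlapping groups.

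Muscle, fat and blood markers set the double knockout libraries apart from each other. Their sum was 410.4 and 52.4 TPM in replicates 1 and 2, and 34.2 and 32.2 in LEF1cKO. The haemoglobin gene Hbb-bs stood at 59.1 and 1.18 TPM in the double knockout, and Car3, of fat and muscle, at 66.6 TPM in replicate 1 and listed at 0 in replicate 2. Of 14 tested, Des (0.71 and 1.58 TPM against 19.8 and 11.03 TPM; 3.77 ± 0.48, adjusted p = 0.0111) and Ckm (0.12 and 0.47 TPM against 4.3 and 1.94 TPM; 3.32 ± 0.71) rose. Myh1 passed with a fall but was under 0.1 TPM in every knockout library. These shares, 14.3% up and 7.14% down, were near the 11.2% and 14.1% of all genes. The part of these markers in the calls that rest on replicate 1 was not tested. The calls of Ckm and Myh1 were lost without LEF1cKO replicate 1 and that of Myh1 without double knockout replicate 2 or either WT library. Car3 passed without double knockout replicate 2.

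**Figure D5:**
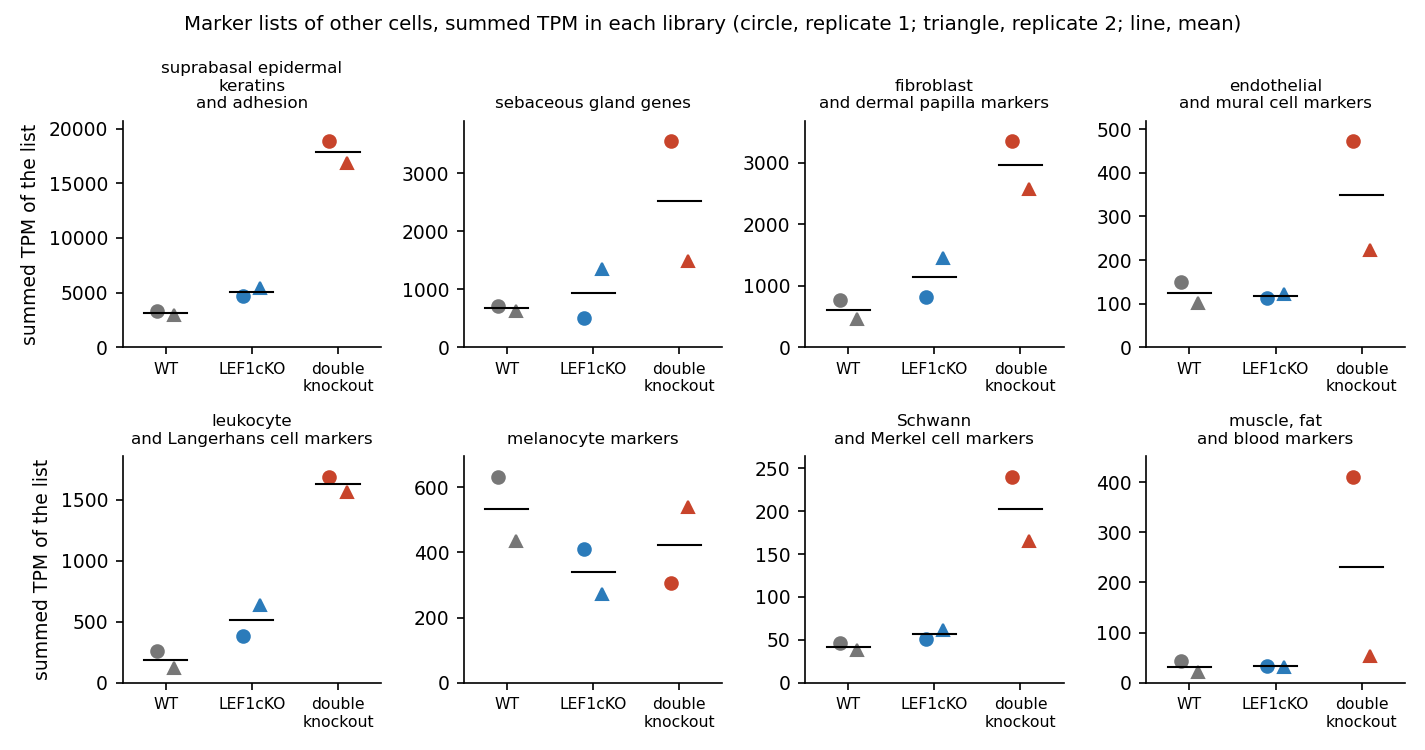
Summed TPM (y axis, from 0) of 8 marker lists in each library of the 3 groups (x axis), with circles for replicate 1, triangles for replicate 2 and lines for means. Both double knockout libraries exceed both LEF1cKO libraries in all lists but melanocyte markers, and double knockout replicate 1 stands alone in the muscle, fat and blood list.

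The 12 largest rises among genes of at least 10 TPM in the higher group were mostly genes known from vessels and muscle. Myh11, Acta2, Actg2 (0.52 and 1.2 TPM against 22.2 and 10.7 TPM; 4.24 ± 0.70), Mylk (0.94 and 1.74 TPM against 25.1 and 8.49 TPM; 3.60 ± 0.56) and Des belong to smooth muscle. Vwf (2.98 ± 0.74), Sparcl1 (3.95 and 6.87 TPM against 71.4 and 20.8 TPM; 3.01 ± 0.67), Aqp1 (4.61 and 3.53 TPM against 73.8 and 15.9 TPM; 3.38 ± 0.71) and Ccl21a (7.82 and 17.2 TPM against 154 and 70.2 TPM; 3.11 ± 0.51) are known from vessels, and Ccl21a has near-identical copies that make its count uncertain. The small membrane protein Fxyd1 (2.88 ± 0.57) and the serotonin transporter Slc6a4 (1.81 and 5.15 TPM against 19.9 and 32.5 TPM; 2.88 ± 0.50, adjusted p = 0.0158) were also among them. The calls of Actg2, Mylk, Vwf, Sparcl1, Aqp1, Ccl21a and Fxyd1 were lost without LEF1cKO replicate 1, those of Vwf and Aqp1 without LEF1cKO replicate 2, that of Slc6a4 without double knockout replicate 2, and that of Vwf without either WT library.

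Of the 12 largest falls, 7 stood in the follicle lists above. Besides Foxe1, Krt28, Msx1 and Dlx1 to Dlx4, Hsd11b2, which inactivates glucocorticoid, stood at 53.5 and 25.02 TPM in LEF1cKO and 0.42 and 1.1 TPM in the double knockout, and at 49.9 and 43.1 in WT (-5.75 ± 0.59, adjusted p = 0.0107). Prss35, a secreted serine protease, went from 83.4 and 56.2 to 3.87 and 4 TPM (-4.22 ± 0.24, adjusted p = 0.0107), and Cps1, a urea cycle enzyme, from 15.6 and 9.06 to 0.6 and 0.69 (-4.34 ± 0.33). Myb, a factor of dividing progenitors, went from 42.1 and 15.4 to 1.89 and 1.91 (-4.04 ± 0.52, adjusted p = 0.0113). The last was Mir1901 (17.7 and 15.8 TPM against 0 and 1.71 TPM; -4.33 ± 1.12), a microRNA gene so short that its TPM from an mRNA library is uncertain. Of the 12, all but Msx1 and Mir1901 kept their call without any 1 of the 5 libraries other than double knockout replicate 1. The call of Mir1901 was lost without LEF1cKO replicate 1, LEF1cKO replicate 2, double knockout replicate 2 or either WT library.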

How the data were processed

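RNA of 6 libraries in 3 groups of 2, assigned by sample title, was analysed, with the double knockout against LEF1cKO as the comparison. Expected count values are the RSEM estimates that the authors deposited per gene, not normalized, with shared reads split between genes. TPM values were also deposited by the authors, per the file headers scaled for length and library, and were used for levels. Effective lengths, another deposited column, served only as an offset in 1 alternative. The submitters' processing notes name Bowtie2 2.2.9, RSEM 1.2.30 and the mm10 build. The annotation release and the use of strand in counting are not given in the sources used here, so overlapping and antisense genes may share reads. The 92 spike-in rows, all at 0, were left out. Positions came from GENCODE M21, which matched 98.9% of the 46517 gene identifiers.

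After rounding, edgeR 4.0.16 (R 4.3.3) was run on the counts (TMM factors 0.962 to 1.04, filterByExpr with a minimum count of 10, quasi-likelihood F test of the earlier edgeR form, Benjamini-Hochberg adjustment at 0.05). All 6 libraries were fitted, which left 3 residual degrees of freedom. Genes that "rose" or "fell" passed this test. The script was tested on simulated data. The depth of 40480694 to 63220022 counts means that a count of 0 allows up to 3 counts, by counting error only. A fit without 1 library takes the spread of the remaining sample of that group from the other 2 groups.

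The gene lists, 41 with 931 symbols of which 890 were tested, and the rules were chosen with earlier results of these data known. Named were the LEF/TCF family, the 12 largest rises and falls that were separate in every library with at least 10 TPM in the higher group, up to 5 called members per list by smallest p (or the 2 of highest TPM where none passed), and the sort and sex-linked genes. Some genes that these rules select are not reported here. Other genes were named after their values were seen: Krt10, Krt15, Ctnnb1, Pttg1, Gins2 and list members given by value or name to complete a count. Alternatives were other scaling, filters, tools (DESeq2 1.42.0, limma 3.58.1), TPM scales, groups, thresholds, blocks and left-out libraries. Replicate numbers are only names in the labels.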

Additional observations from a re-analysis of the deposited data

How the results depend on the processing

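Across 20 alternatives none of the 178 named genes that passed changed direction. Nearly all of them had separate knockout libraries, so leaving out 1 library could hardly reverse them. Of the named genes that did not pass, Lef1, Xist and Kdm5d turned to 0.09, -0.22 and 0.05 without LEF1cKO replicate 1. Tsix turned to 0.42 without LEF1cKO replicate 2 and Hmgcs1 to -0.02 without double knockout replicate 1. Under these alternatives the median of all genes shifted by at most 0.06 on the log2 scale. The number of genes called was less stable. With only the knockout libraries fitted, 2585 passed, 1294 up and 1291 down. At an adjusted p of 0.01 there were 0 calls in either direction by edgeR, although 8147 genes had an unadjusted p under 0.05 and DESeq2 called 6477 at 0.05. With each library left out in turn, calls ran from 1 to 5973, rises from 1 to 2689 and falls from 0 to 3284, lowest without double knockout replicate 1 and highest without LEF1cKO replicate 2. Without either WT library 2201 and 2124 passed, without LEF1cKO replicate 1 1652, and without double knockout replicate 2 2884. Other alternatives stayed within 1.5 times the main counts, from 3635 calls with a replicate block to 6477 with DESeq2. The newer edgeR fit, chosen after seeing the data, called 5399. Of the 178 named genes that passed, 99 kept their call without LEF1cKO replicate 1, 129 without double knockout replicate 2, 166 without LEF1cKO replicate 2, 144 and 139 without a WT library, 150 with only the knockout libraries and 1 without double knockout replicate 1.

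Same-numbered libraries did not deviate together (correlation of deviations from group means -0.04, 0.06 and -0.03). With 2 libraries a group, that cannot show whether the numbers pair the samples. With the replicate number as a block, 3635 genes passed, 1672 up and 1963 down. With that replicate block and only the knockout libraries 0 passed in either direction, with 6174 at an unadjusted p under 0.05, and 1 residual degree of freedom. With 2 libraries a group, changes under 2-fold and genes of low level are least certain.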

Other observations

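Genes around Tcf7 on chromosome 11 were called about as often as elsewhere when both directions are pooled, but those nearest to it only fell. Of 26 genes tested within 1 Mb of its start, 6 fell with edgeR (23.1% against 14.1% of all). None rose, against 11.2% of all, and the median log2 fold change was -0.18. Within 10 Mb 31 rose and 34 fell, so that 27.1% of 240 were called against 25.2% of all. The part of the Tcf7 allele in the falls nearby was not tested. Over the chromosomes the share called ran from 19.5% on chromosome 3 to 31.2% on chromosomes 15 and 19, with 29.8% on chromosome 11.

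Processed pseudogenes and lincRNA genes were called less often than all genes tested, of which 25.2% passed (11.2% up and 14.1% down). Of 670 processed pseudogenes tested, 13 rose and 55 fell, and of 702 lincRNA genes 24 rose and 18 fell. Counts of pseudogenes are uncertain, since RSEM splits shared reads between copies.

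The level that a gene had in LEF1cKO was in several cases off the line between WT and the double knockout. Hhip was at 10.5 and 8.58 TPM in LEF1cKO, above WT (3.46 and 4.65) and the double knockout (0.94 and 0.5). Krt6a was lowest in LEF1cKO (35.2 and 55.04 TPM), below WT (157 and 166) and the double knockout (116 and 146), and so was Pttg1 (22.7 and 27.3, with 68.9 and 64.1 in WT and 36.4 and 35.3 in the double knockout). These 3 genes were chosen after their values were seen, and the differences from WT were not tested here.

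For Gins2 the scales disagreed. TPM went from 101 and 105 in LEF1cKO to 46.3 and 72.7 in the double knockout, while the fitted counts gave a log2 fold change of -0.34. TPM divides by an effective length that RSEM estimates per library, and the cause was not tested.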
